A study of Danio rerio with 6 samples.

Results

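Crystallins are the soluble proteins that fill the fibre cells of the eye lens and give the lens its transparency and refractive power. The genes were taken by symbol, as every listed gene whose symbol begins with crya, cryb or cryg, which gave 55 of the 15336 genes in the count tables. They comprised 3 alpha, 7 acidic beta, 5 basic beta, 33 gamma M, 2 gamma N and 4 gamma S crystallins, and crybgx, which was kept apart as a beta-gamma gene of its own. Expression was compared between panx1a-/- larvae and larvae of the TL (Tupfel long fin) wild-type strain, both untreated and both collected whole at 6 days post fertilization (dpf), with 3 RNA-seq libraries per genotype. The panx1a-/- line carries a TALEN-made, short frameshifting deletion in a coding exon of panx1a, which encodes the channel protein Pannexin 1a, and descends from 1 founder in the TL background. No source states whether the libraries of a genotype came from separate clutches or pools, so p-values measure only the spread between these libraries, which may be technical.

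Alpha crystallins belong to the small heat shock proteins and act as chaperones that hold unfolding lens proteins in solution. Beta and gamma crystallins share a common fold built from Greek key motifs. Beta crystallins assemble into dimers and larger oligomers of acidic and basic chains, whereas gamma crystallins are monomers that pack densely. The gamma M class is rich in methionine and is expanded in fish, whose lenses are harder and more refractive than those of land vertebrates. Crystallin transcripts are the hallmark of differentiating lens fibre cells, which also make membrane and cytoskeletal proteins of their own such as the aquaporin Mip, the membrane protein Lim2 and the beaded filament protein Bfsp2.

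Reads counted on genes lay between 13054759 and 17776115 in the panx1a-/- libraries and between 17349457 and 21472044 in the TL libraries, so that 3 counts, taken as the floor of detection, corresponded to 0.155 to 0.209 CPM (counts scaled to a common library total). CPM values are scaled with TMM factors, which correct for differences in library composition. Counts of the targeted gene panx1a were 22, 17 and 13 in panx1a-/- larvae and 110, 114 and 147 in TL larvae (log2 fold change −2.72, SE 0.26, edgeR quasi-likelihood adjusted p = 0.00793). Of all 12797 genes tested, 1264 were called higher and 1506 lower in panx1a-/- larvae, with a median log2 fold change of −0.06. Uniquely aligned reads outside annotated features made up 48.4% to 59.4% in panx1a-/- libraries and 30.2% to 42.9% in TL libraries. The part of this share in the crystallin results was not tested other than as a covariate, with which no crystallin was called, against 0% of all tested genes called higher and 0.00781% lower. In that fit, 41 of the 42 tested crystallins lay below 0 (against 50.4% of all genes). Their median log2 fold change was −1.96, against −0.86 without the covariate. The share did not overlap between the genotypes, and among the TL libraries it was highest in TL replicate 1 (42.9%). The fit therefore cannot tell the share apart from genotype, and no conclusion is drawn from it.

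One TL library stood apart from the other libraries in its crystallins. TL replicate 1 had the highest CPM of the 6 libraries for 37 of the 42 crystallins tested (88.1%), against 10.2% of all tested genes. It lay at least 2-fold above every other library for 23 of the 42 (54.8%), which held for 47 genes in all (0.367%). TL replicate 2 stood that far above the rest for 1 crystallin, crygm2d2 (2.38%, against 1.04% of all tested genes). TL replicate 3 and panx1a-/- replicates 1, 2 and 3 did so for 0 crystallins (against 0.133%, 0.0703%, 0.148% and 0.0781% of all tested genes). The 47 genes also included bfsp2, grifin, lgsn, lim2.3, lim2.4, lim2.5 and mipa, all of them on the list of lens fibre genes that was used. For the median tested crystallin, TL replicate 1 lay 2.57-fold above the mean of the other TL libraries. Results are therefore given with TL replicate 1 and, where they turn on it, also without it. As TL replicate 1 was singled out from these same crystallin values, p-values from fits without it are descriptive only.

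**Figure D1:**
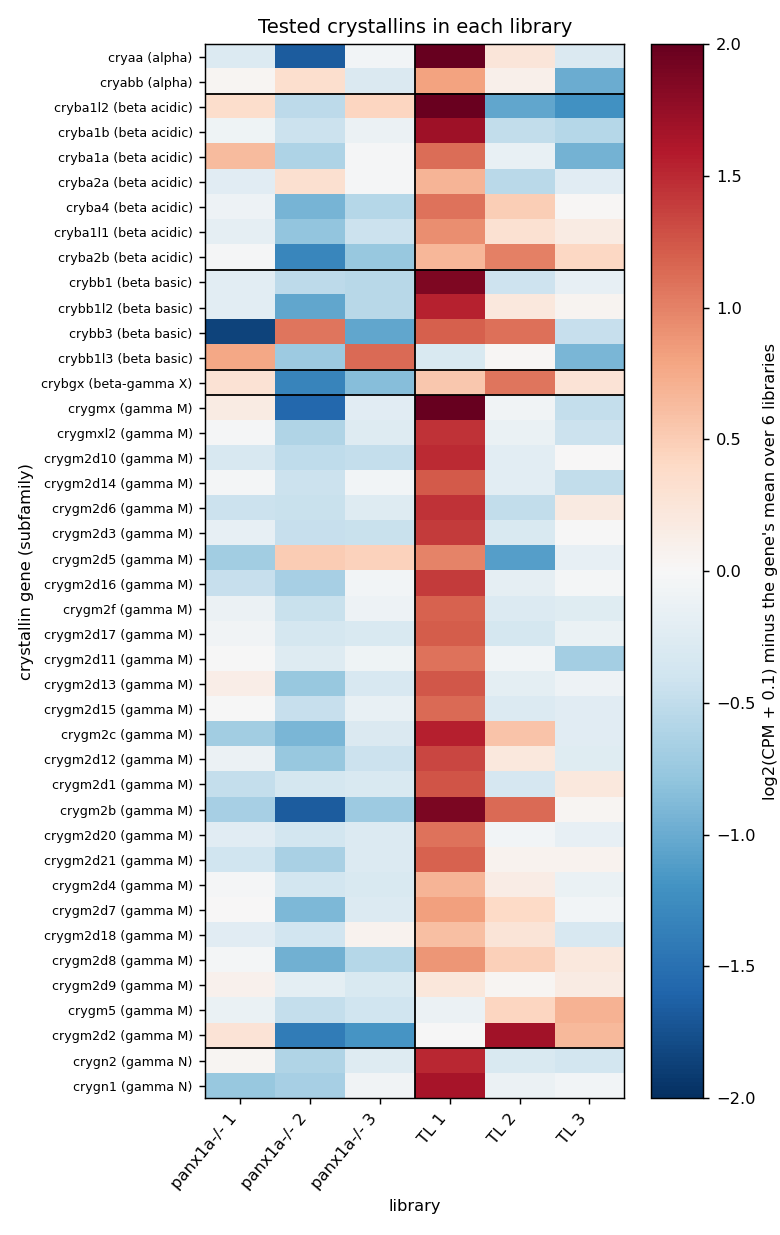
Each row is a tested crystallin and each column a library, and the colour is log2(CPM + 0.1) minus the mean of that gene over the 6 libraries, with red above and blue below it. The column of TL replicate 1 is the reddest for 37 of the 42 genes, and rows are ordered within each subfamily by the fold of TL replicate 1 over the mean of the other TL libraries, from high to low.

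Summed over all 55 genes, crystallins had 3733, 2969 and 3465 CPM in panx1a-/- libraries and 9510, 4232 and 3954 CPM in TL libraries. Averages were 3389 ± 388 CPM in panx1a-/- larvae and 5899 ± 3131 CPM in TL larvae (SD, n = 3 each), a ratio of 0.575. The value of TL replicate 1 was 2.25-fold above the highest other library, whereas the remaining 5 libraries spanned 1.43-fold. With TL replicate 1 left out, the ratio was 0.828. This remaining difference depended on the scaling, and TL replicate 2 had the lowest TMM factor (0.771, against 0.961 to 1.10 in the other libraries). As a share of all reads on genes, with no such factor, crystallins took 0.409%, 0.314% and 0.382% in panx1a-/- libraries and 1.00%, 0.326% and 0.380% in TL libraries. The 95% Wilson intervals of these shares, which cover counting error only, reached at most 0.00470 percentage points to either side. Scaled by library size alone and without TL replicate 1, the ratio was 1.04, above 1. In RNA from whole larvae, a lower summed level from fewer lens cells and one from less crystallin RNA per lens cell cannot be told apart.

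**Figure D2:**
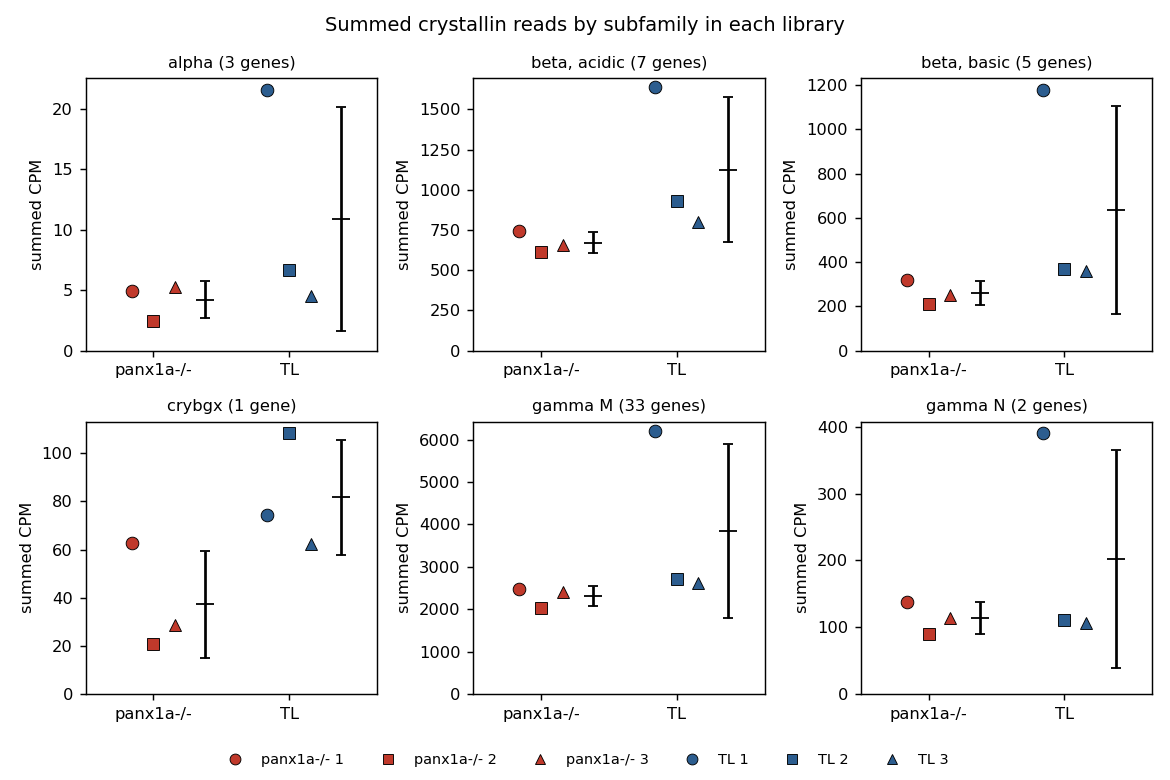
Summed CPM of each crystallin subfamily (vertical axis, from 0) is shown for every panx1a-/- library on the left and every TL library on the right, with bars for the mean and SD of 3 libraries. TL replicate 1 is the top point in the alpha, acidic beta, basic beta, gamma M and gamma N panels, and for crybgx the top point is TL replicate 2.

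Of the 42 tested crystallins, 5 were called lower in panx1a-/- larvae at an adjusted p below 0.05 (11.9%), close to the 11.8% of all tested genes called lower. They were the acidic beta crystallin genes cryba2b, cryba1l1 and cryba4 and the gamma M genes crygm2b and crygm2d8. No crystallin was called higher by edgeR's quasi-likelihood test, against 9.88% of all tested genes, and 0 were higher at an unadjusted p below 0.05, against 20.0%. DESeq2, edgeR's exact test and limma-voom on the same 6 libraries also called 0 crystallins higher, against 15.3%, 13.4% and 10.4% of all tested genes. They called 12, 10 and 5 of the 42 crystallins lower, against 16.1%, 17.6% and 11.8% of all tested genes. The closeness to the share of all genes called lower thus depended on the test. DESeq2 added cryaa, crybb1l2, crybgx, crygm2c, crygm2d2, crygm2d10 and crygm2d21 to the 5 genes. The exact test added the same genes except cryaa and crygm2d10. At an unadjusted p below 0.05, 16 crystallins were lower (38.1%, against 23.6%). The log2 fold change lay below 0 for 40 of the 42 crystallins (95.2%), against 53.2% of all tested genes, and its median was −0.86. All CPM values of panx1a-/- larvae lay below all those of TL larvae for 11 of the 42 (26.2%), against 24.1% of all tested genes, and above them for 0, against 23.4%. Without TL replicate 1, 28 of 43 tested crystallins remained below 0 (65.1%), against 53.0% of all genes. Their median was then −0.23, while the median over all tested genes was −0.07. When library size alone was used as well, 18 of the 43 were below 0 (against 39.2% of all genes) and the median was 0.11, while the median over all tested genes was 0.25. The sign of the family's median without TL replicate 1 thus turned with the scaling, as did that of the median over all tested genes.

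Whether a crystallin was called also depended on which libraries entered the fit. Without TL replicate 1, the genes called lower were cryba1l1, cryba2b, crygm2b, crygm2d21, crygm2d8 and crygm5 (6 of 43, 14.0%, against 17.9% of all tested genes), and cryba1l2 was called higher (2.33%, against 18.5%). Without panx1a-/- replicate 2, cryba2b and crygm2b were called lower again, together with crybb3 and crygm2a (against 16.0% of all tested genes), and crybb1l3 was called higher (against 12.2%). Leaving out panx1a-/- replicate 1, panx1a-/- replicate 3, TL replicate 2 or TL replicate 3 left no crystallin called, in fits that called at most 38 genes higher and 104 lower in all. The gene cryba4 lost its call in each of the 6 fits that left out a library, with adjusted p between 0.0565 and 0.148 in edgeR's quasi-likelihood test. Scaled by library size alone, crygm2b was the only crystallin called lower (against 4.74% of all tested genes). With library size alone and without TL replicate 1, crygm2b was called lower (against 8.85%), and cryba1b and cryba1l2 were called higher (against 26.7%).

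**Figure D3:**
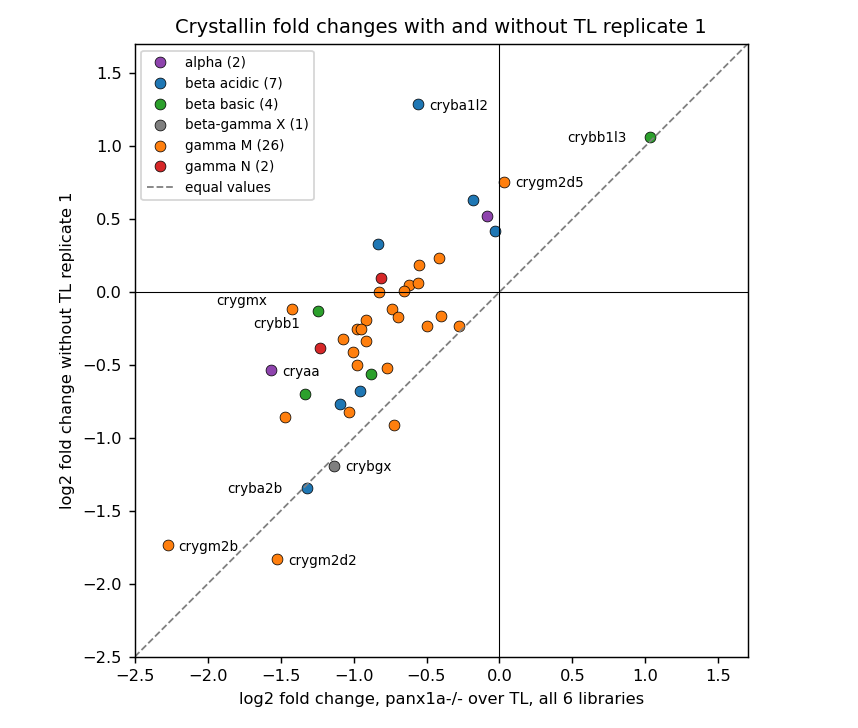
Each point is a tested crystallin, with its log2 fold change of panx1a-/- over TL in all 6 libraries on the horizontal axis and without TL replicate 1 on the vertical axis, coloured by subfamily, and the dashed line marks equal values. Most points lie above the line and nearer to 0 on the vertical axis, such as crybb1 (−1.24 and −0.13), while cryba2b (−1.32 and −1.34) and crygm2d2 (−1.52 and −1.83) lie on or below it.

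The alpha crystallins were the least counted subfamily next to gamma S. The gene cryaa, which encodes alpha A crystallin, the lens chaperone, had 4.06, 1.49 and 4.73 CPM in panx1a-/- libraries and 20.3, 5.86 and 4.03 CPM in TL libraries. Its values overlapped between the genotypes, and 1 TL library held most of the difference. The log2 fold change was −1.56 (SE 0.67, 95% interval −3.13 to 0.00, quasi-likelihood adjusted p = 0.115), and −0.54 without TL replicate 1 (95% interval −1.63 to 0.56, adjusted p = 0.383, same test). Of the alpha B crystallin genes, cryabb had 0.638, 0.797 and 0.487 CPM in panx1a-/- libraries and 1.15, 0.665 and 0.258 CPM in TL libraries, with a log2 fold change of −0.08 (SE 0.54, 95% interval −1.32 to 1.16). Its counts lay between 5 and 21, and the sign of its fold change turned with library size scaling and with limma-voom. The other alpha B gene, cryaba, was near the floor, with 4, 3 and 1 counts in panx1a-/- larvae and 2, 3 and 4 counts in TL larvae, and was not tested. RefSeq places cryaa in overlap with hsf2bp, and cryabb with hspb2 and cfap68, and since the strand setting of the counting is not given in the sources used here, these values are uncertain.

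Acidic beta crystallins summed to 742, 612 and 658 CPM in panx1a-/- libraries and 1640, 932 and 801 CPM in TL libraries. The ratio of the means was 0.596, and 0.774 without TL replicate 1. Of 7 tested genes, 3 fell (42.9%, against 11.8% of all tested genes), and the median log2 fold change was −0.83 with all libraries and 0.33 without TL replicate 1. The subfamily thus split into genes that were low in panx1a-/- larvae in either fit and genes whose fold change turned positive when TL replicate 1 was left out.

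The lowest p-value among the beta genes was that of cryba2b, a beta A2 crystallin, with 130, 53.2 and 77.8 CPM in panx1a-/- libraries and 210, 265 and 176 CPM in TL libraries. It was among the 4 tested crystallins in which TL replicate 1 did not exceed the mean of the other TL libraries. The log2 fold change was −1.32 (SE 0.34, 95% interval −2.09 to −0.55, quasi-likelihood adjusted p = 0.0362) with 6 libraries and −1.34 (adjusted p = 0.0354, same test) without TL replicate 1. The call was lost when library size alone was used for scaling and in 4 of the 6 fits that left out a library. Its share of all crystallin reads, which needs no scaling, was 3.47%, 1.79% and 2.25% in panx1a-/- libraries and 2.21%, 6.27% and 4.45% in TL libraries. The shares thus overlapped, through TL replicate 1 only.

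The gene cryba1l1, a beta A1-like crystallin, had 154, 101 and 131 CPM in panx1a-/- libraries and 336, 216 and 196 CPM in TL libraries, with no overlap. The log2 fold change of this gene was −0.95 (SE 0.27, 95% interval −1.58 to −0.33, quasi-likelihood adjusted p = 0.0444), and −0.68 without TL replicate 1 (adjusted p = 0.0408, same test). For cryba4, which encodes beta A4 crystallin, 134, 75.2 and 97.5 CPM were measured in panx1a-/- libraries and 306, 202 and 147 CPM in TL libraries, again with no overlap. Its log2 fold change was −1.09 (SE 0.32, quasi-likelihood adjusted p = 0.0467), and −0.77 without TL replicate 1 (adjusted p = 0.0565, same test). As shares of all crystallin reads, both genes overlapped between the genotypes, in each case only through TL replicate 1. The share of cryba1l1 was 4.14%, 3.40% and 3.77% in panx1a-/- libraries and 3.53%, 5.11% and 4.96% in TL libraries. That of cryba4 was 3.59%, 2.53% and 2.81% in panx1a-/- libraries and 3.21%, 4.78% and 3.72% in TL libraries.

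The other beta A2 gene, cryba2a, had 201, 290 and 231 CPM in panx1a-/- libraries and 374, 161 and 201 CPM in TL libraries. With all libraries, its log2 fold change was −0.03 (SE 0.33, 95% interval −0.79 to 0.73, quasi-likelihood adjusted p = 0.954), and its sign turned with RLE factors, library size scaling, limma-voom and DESeq2. Of the beta A2 copies only cryba2b was thus called, and the difference between the copies was not tested. Values of cryba2a are uncertain, as RefSeq places it in overlap with tmem198ab.

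Some further acidic genes, chosen after their values were seen, rested on TL replicate 1 to a greater extent. The gene cryba1b, a beta A1 crystallin, had 105, 83.2 and 103 CPM in panx1a-/- libraries and 363, 80.0 and 75.3 CPM in TL libraries. Its log2 fold change was −0.83 (SE 0.59) with all libraries and 0.33 without TL replicate 1 (95% interval −0.06 to 0.72, quasi-likelihood adjusted p = 0.153). The largest excess of TL replicate 1 over the other TL libraries, 8.74-fold, was that of cryba1l2, with 15.3, 8.34 and 16.3 CPM in panx1a-/- libraries and 47.7, 5.80 and 5.11 CPM in TL libraries. Here the panx1a-/- values lay between TL replicate 1 and the other TL libraries, and the log2 fold change was −0.56 (quasi-likelihood adjusted p = 0.619) with all libraries and 1.29 without TL replicate 1 (95% interval 0.54 to 2.03, adjusted p = 0.0215, same test). The library left out was the highest for cryba1l2, so no conclusion is drawn from the latter p-value. The remaining acidic gene, cryba1a, had 0.826 to 3.77 CPM over the 6 libraries. Its log2 fold change was −0.18 (quasi-likelihood adjusted p = 0.828), and 0.63 without TL replicate 1 (95% interval −0.52 to 1.79).

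**Figure D4:**
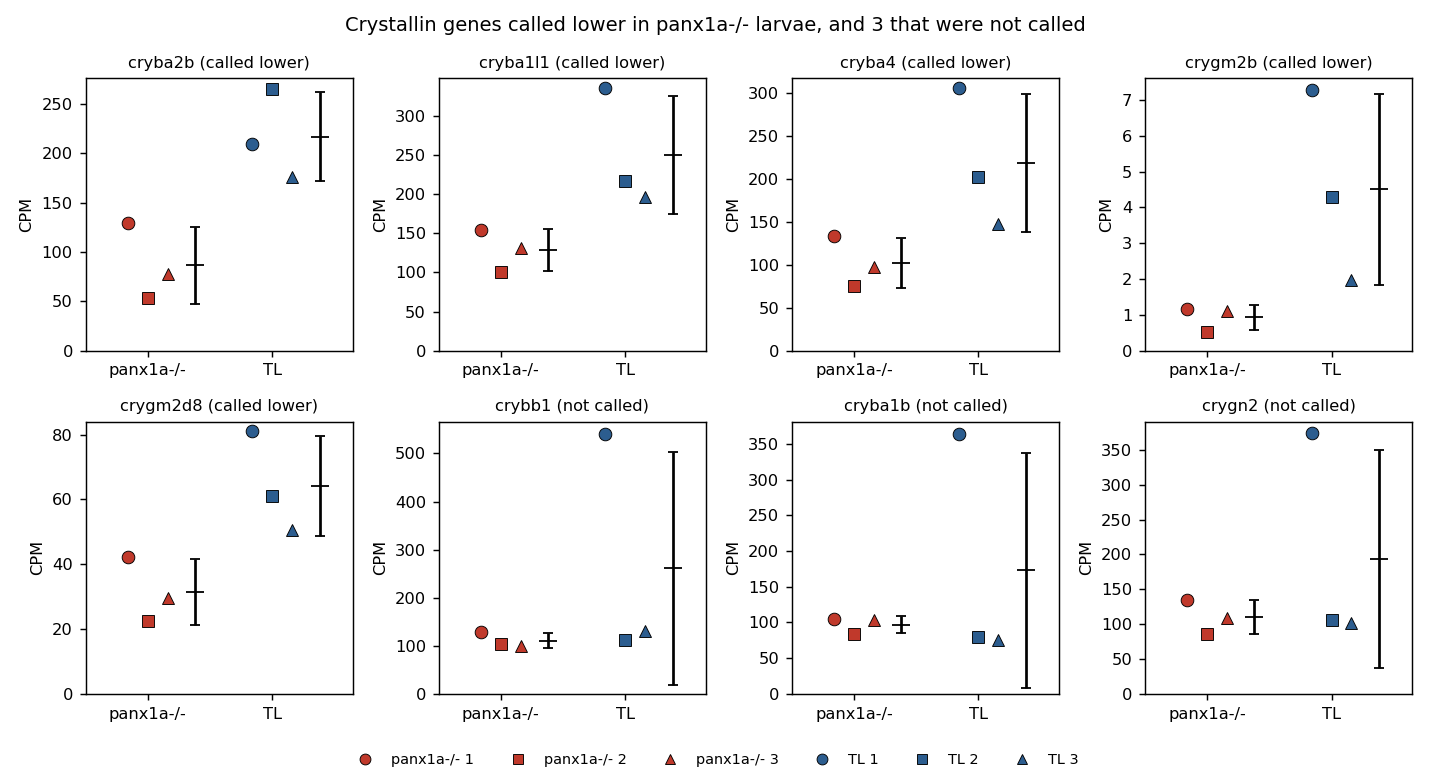
CPM (vertical axis, from 0) of the 5 crystallins called lower, and of crybb1, cryba1b and crygn2 as genes that were not called, with panx1a-/- libraries on the left and TL libraries on the right, and bars for the mean and SD of 3 libraries. In the called genes all panx1a-/- points lie below all TL points, whereas in crybb1, cryba1b and crygn2 only TL replicate 1, at 540, 363 and 374 CPM, stands away from the rest. These 3 are selected examples, and other genes that were not called, such as crybb1l2 and crygm2d10, did not overlap between the genotypes.

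Basic beta crystallins summed to 318, 210 and 251 CPM in panx1a-/- libraries and 1179, 367 and 358 CPM in TL libraries. The ratio of the means was 0.409, the lowest after that of the alpha genes, and it was 0.716 without TL replicate 1 and 0.902 when library size alone was used as well. None of the 4 tested genes passed the quasi-likelihood test with 6 libraries and TMM factors. For crybb1, which encodes beta B1 crystallin, 128, 103 and 101 CPM were measured in panx1a-/- libraries and 540, 112 and 132 CPM in TL libraries. In the 6 libraries, its log2 fold change of −1.24 (SE 0.58, 95% interval −2.60 to 0.12, quasi-likelihood adjusted p = 0.141) became −0.13 without TL replicate 1 (95% interval −0.56 to 0.30). The most highly counted basic gene was crybb1l2, a beta B1-like crystallin, with 189, 106 and 148 CPM in panx1a-/- libraries and 636, 253 and 226 CPM in TL libraries. Its groups did not overlap, and its log2 fold change was −1.33 (SE 0.43, 95% interval −2.33 to −0.33, quasi-likelihood adjusted p = 0.0591) and −0.70 without TL replicate 1 (adjusted p = 0.0624, same test). On the 6 libraries, crybb1l2 was called lower by DESeq2 (adjusted p = 0.0128) and by edgeR's exact test (adjusted p = 0.0151). Upper-quartile factors and the replicate block also gave a call.

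The other basic genes were close to the floor. With 24, 8 and 26 counts in panx1a-/- larvae and 11, 13 and 7 counts in TL larvae, crybb1l3 had the highest log2 fold change of the tested crystallins, 1.03 (SE 0.56, quasi-likelihood adjusted p = 0.188), and its groups overlapped. The gene crybb3, for beta B3 crystallin, had 2, 29 and 4 counts in panx1a-/- larvae and 31, 26 and 9 in TL larvae, and crybb2, for beta B2 crystallin, had at most 2 counts in a library and was not tested. RefSeq places crybb1l3 in overlap with cryba1a, which also overlaps unc119a1, and crybb2 with kazald3.

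The gene crybgx, a beta-gamma crystallin that is not assigned to either class here, did not follow TL replicate 1. It had 62.6, 20.6 and 28.6 CPM in panx1a-/- libraries and 74.5, 109 and 62.2 CPM in TL libraries, with TL replicate 2 the highest and an overlap of 1 panx1a-/- library with the TL values. Its log2 fold change was −1.13 (SE 0.42, 95% interval −2.11 to −0.16, quasi-likelihood adjusted p = 0.0806), and −1.19 without TL replicate 1 (95% interval −2.43 to 0.04). As a share of all crystallin reads it took 1.68%, 0.693% and 0.825% in panx1a-/- libraries and 0.783%, 2.56% and 1.57% in TL libraries.

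Gamma M crystallins took most of the crystallin reads in every library. They summed to 2467, 2033 and 2407 CPM in panx1a-/- libraries and 6204, 2706 and 2622 CPM in TL libraries, a ratio of 0.599 that was 0.864 without TL replicate 1 and 1.09 when library size alone was used as well. Of 33 genes, 26 were tested, with log2 fold changes of −2.27 to 0.03 and a median of −0.80, and 2 of them fell (7.69%, against 11.8% of all tested genes). Without TL replicate 1 the median was −0.23. Near-identical tandem copies among these genes may share reads, and reads that align to more than 1 place are not assigned to a gene by the counting program, so values of single copies are uncertain. Such multiple alignments were 35.1 to 66.6 for every 100 counts on genes in panx1a-/- libraries and 19.6 to 47.5 in TL libraries, over all genes, and their part in the gamma M values was not tested.

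The gamma M genes with calls were not those with the highest CPM. The gene crygm2b, with the largest fold change of the tested crystallins, had 20, 10 and 16 counts in panx1a-/- larvae and 133, 71 and 38 counts in TL larvae, or 1.16, 0.531 and 1.11 CPM against 7.27, 4.29 and 1.96 CPM. Its fitted log2 fold change was −2.27 (SE 0.53, 95% interval −3.50 to −1.05, quasi-likelihood adjusted p = 0.0331), and −1.74 without TL replicate 1 (adjusted p = 0.0287, same test). The gene crygm2d8 had 42.4, 22.4 and 29.5 CPM in panx1a-/- libraries and 81.0, 61.1 and 50.6 CPM in TL libraries. Its log2 fold change was −1.03 (SE 0.27, 95% interval −1.65 to −0.41, quasi-likelihood adjusted p = 0.0385), and −0.83 without TL replicate 1 (adjusted p = 0.0432, same test). In CPM, neither gene overlapped between the genotypes. As a share of all crystallin reads, crygm2d8 did overlap, through TL replicate 1 only, with 1.14%, 0.755% and 0.851% in panx1a-/- libraries and 0.852%, 1.44% and 1.28% in TL libraries. The share of crygm2b did not, with 0.0311%, 0.0179% and 0.0321% in panx1a-/- libraries and 0.0764%, 0.101% and 0.0496% in TL libraries.

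The gene crygm2c, which neighbours crygm2b in the same array with only crygmxl1 between them, had 1.80, 1.54 and 2.43 CPM in panx1a-/- libraries and 8.90, 4.47 and 2.53 CPM in TL libraries. Its groups were separated by a narrow margin, and its log2 fold change was −1.47 (SE 0.46, quasi-likelihood adjusted p = 0.0542). In crygm2d2 the order of the TL libraries was another one, with 11.2, 3.45 and 4.03 CPM in panx1a-/- libraries and 9.23, 30.1 and 14.7 CPM in TL libraries. It was the tested crystallin with the smallest ratio of TL replicate 1 to the other TL libraries (0.412), and its log2 fold change was −1.52 (SE 0.57, 95% interval −2.85 to −0.20, quasi-likelihood adjusted p = 0.0828).

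The 5 gamma M genes with the highest mean CPM all belonged to the gamma M2d copies, and none passed the quasi-likelihood test. For crygm2d1, 209, 228 and 234 CPM were measured in panx1a-/- libraries and 697, 230 and 337 CPM in TL libraries (log2 fold change −0.91, SE 0.38, quasi-likelihood adjusted p = 0.105). Its panx1a-/- values had an SD of 13.1 CPM, and the highest of them lay inside the TL range. The gene crygm2d7 had 274, 147 and 226 CPM in panx1a-/- libraries and 484, 358 and 263 CPM in TL libraries, with a log2 fold change of −0.77 (SE 0.31, quasi-likelihood adjusted p = 0.0935). The gene crygm2d18 had 219, 196 and 272 CPM in panx1a-/- libraries and 391, 309 and 206 CPM in TL libraries, with a log2 fold change of −0.40 (SE 0.27, quasi-likelihood adjusted p = 0.279). In both genes the ranges of the genotypes overlapped.

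The gene crygm2d10 did not overlap, with 180, 158 and 162 CPM in panx1a-/- libraries and 633, 193 and 226 CPM in TL libraries. For this gene, the log2 fold change of −1.07 (SE 0.44, quasi-likelihood adjusted p = 0.101) became −0.33 without TL replicate 1 (adjusted p = 0.169, same test). For crygm2d13, 189, 101 and 138 CPM were measured in panx1a-/- libraries and 405, 150 and 160 CPM in TL libraries, with a log2 fold change of −0.74 (SE 0.43, quasi-likelihood adjusted p = 0.209) that became −0.12 without TL replicate 1.

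Across the 20 tested gamma M2d copies, TL replicate 1 exceeded the mean of the other TL libraries by a median of 2.55-fold, with a range of 0.412 to 3.02, and by 2-fold or more in 14. Among copies chosen after their values were seen, crygm2d9 had the smallest SE of all tested crystallins (0.16), with 49.1, 40.4 and 37.5 CPM in panx1a-/- libraries and 54.2, 47.9 and 52.1 CPM in TL libraries (log2 fold change −0.28, 95% interval −0.65 to 0.09). TL replicate 1 was only 1.08-fold above the mean of the other TL libraries there. The copy crygm2d5 was the only tested gamma M gene with a fold change above 0 in 6 libraries, with 82.8, 192 and 186 CPM in panx1a-/- libraries and 268, 63.0 and 120 CPM in TL libraries (log2 fold change 0.03, 95% interval −1.22 to 1.28). Outside the M2d copies, crygmx ranged from 14.4 to 48.5 CPM in panx1a-/- libraries and from 31.0 to 195 CPM in TL libraries, and TL replicate 1 was 5.41-fold above the mean of the other TL libraries. In crygm5 TL replicate 1 was the lowest TL library, with 4.41, 3.45 and 3.68 CPM in panx1a-/- libraries and 4.48, 6.59 and 7.95 CPM in TL libraries, and its log2 fold change was −0.72 with all libraries and −0.91 without TL replicate 1 (quasi-likelihood adjusted p = 0.0782 and 0.0253).

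The gamma N genes followed TL replicate 1 closely. The gene crygn2 had 135, 86.1 and 109 CPM in panx1a-/- libraries and 374, 106 and 101 CPM in TL libraries, and so made up nearly all of the gamma N reads. Its log2 fold change was −0.81 (SE 0.52, 95% interval −2.01 to 0.39, quasi-likelihood adjusted p = 0.251), and 0.10 without TL replicate 1 (95% interval −0.39 to 0.58). The gene crygn1 had 53, 62 and 72 counts in panx1a-/- larvae and 305, 80 and 98 counts in TL larvae, with a log2 fold change of −1.23 (quasi-likelihood adjusted p = 0.108) that became −0.39 without TL replicate 1. Summed gamma N levels had a ratio of 0.563 with all libraries and of 1.05 without TL replicate 1, and RefSeq places crygn1 in overlap with ly97.3.

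Gamma S crystallins, the class that persists in mature mammalian lenses, were barely detected. The 4 genes together had 11, 17 and 11 counts in panx1a-/- larvae and 18, 11 and 8 counts in TL larvae. Of single genes, crygs4 had 6, 9 and 5 counts in panx1a-/- larvae and 11, 7 and 4 in TL larvae, and crygs3 had 4, 3 and 4 counts in panx1a-/- larvae and 4, 3 and 3 in TL larvae. The gene crygs2 had 1, 5 and 1 counts in panx1a-/- larvae and 1 in each TL library, and crygs1 had 0, 0 and 1 counts in panx1a-/- larvae and 2, 0 and 0 in TL larvae. None of these genes was tested, and counts this low limit what a comparison between the genotypes could show. RefSeq places crygs4 in overlap with crygm3, and crygs2 with lcmt2.

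Altogether 13 crystallins were not tested, with 0 to 17 counts in a library: cryaba, crybb2, the 4 gamma S genes and the gamma M genes crygm1, crygm2a, crygm3, crygm4, crygm6, crygm7 and crygmxl1. Among these, crygm4 had 17, 7 and 8 counts in panx1a-/- larvae and 0, 7 and 2 counts in TL larvae, and crygm2a had 0, 3 and 1 counts in panx1a-/- larvae and 13, 4 and 12 counts in TL larvae, which did not overlap. Both were chosen after their values were seen.

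The composition of the crystallin pool was compared as each subfamily's share of all crystallin reads, a measure that no scaling between libraries affects. Gamma M genes took 66.1%, 68.5% and 69.5% in panx1a-/- libraries and 65.2%, 64.0% and 66.3% in TL libraries. Acidic beta genes took 19.9%, 20.6% and 19.0% in panx1a-/- libraries and 17.2%, 22.0% and 20.3% in TL libraries, and gamma N genes took 3.69%, 3.01% and 3.30% in panx1a-/- libraries and 4.11%, 2.61% and 2.68% in TL libraries. These shares overlapped between the genotypes, for gamma N genes only through TL replicate 1. Basic beta genes took 8.52%, 7.09% and 7.25% in panx1a-/- libraries and 12.4%, 8.68% and 9.06% in TL libraries, which did not overlap, although the nearest values had overlapping 95% Wilson intervals (8.31% to 8.74% in panx1a-/- replicate 1 and 8.47% to 8.89% in TL replicate 2). Gamma S genes, at 8 to 18 counts in a library, did not overlap in the other direction, with 0.0171%, 0.0304% and 0.0221% in panx1a-/- libraries and 0.0103%, 0.0157% and 0.0104% in TL libraries. Their nearest intervals overlapped too, with 0.00954% to 0.0306% in panx1a-/- replicate 1 and 0.00878% to 0.0281% in TL replicate 2. Neither difference in share was tested. Alpha genes took 0.132%, 0.0823% and 0.152% in panx1a-/- libraries and 0.226%, 0.159% and 0.114% in TL libraries. The 95% Wilson intervals reached at most 0.406 percentage points to either side. In TL replicate 1 the basic beta share was the highest and the acidic beta share the lowest of the 6 libraries.

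The order of genes along chromosomes came from RefSeq (assembly GRCz12tu), which differs from the build of the count tables and was used for neighbours only. Of 61 crystallin symbols there, 55 matched the count tables, and the other 6 (crybb1l1, crybg1a, crybg1b, crybg2, crygm2d19 and crygm2e) were not analysed here. The longest run of neighbouring crystallin genes held 31, from crygm2c to crygs3, of which 29 had counts and 24 were tested. Their log2 fold changes ran from −2.27 to 0.03 with a median of −0.76. Of the 26 tested gamma M genes, 24 lay in this run, among them both that were called. The genes next to crygm2d8, crygm2d17 and crygm2d14, had log2 fold changes of −0.66 and −0.55 and were not called.

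**Figure D5:**
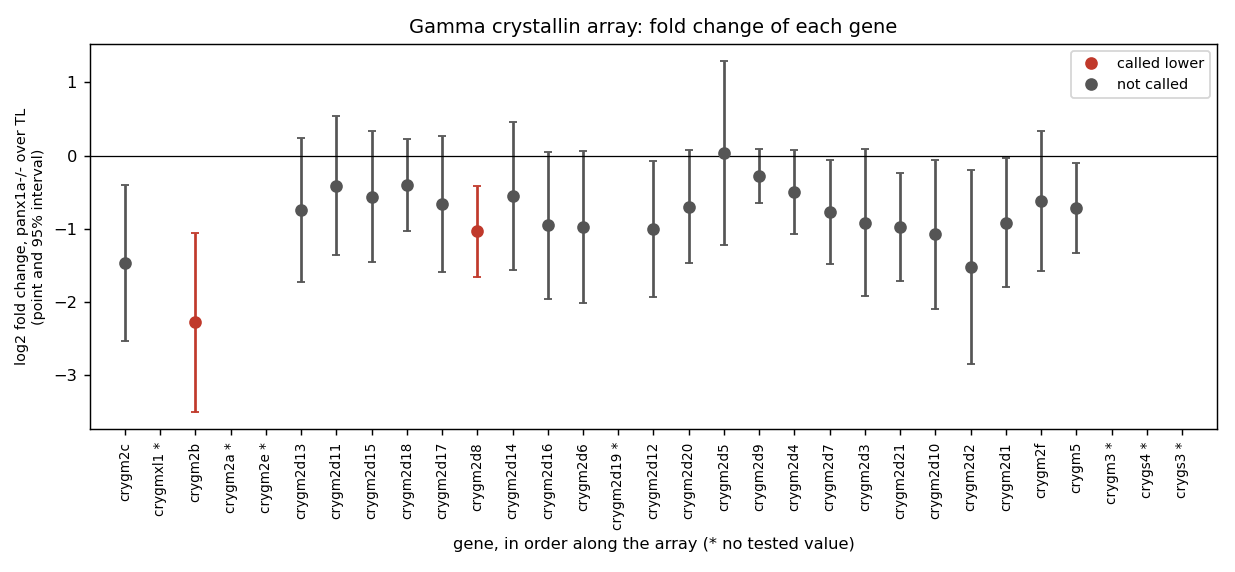
Genes of the longest crystallin run are placed in their order on the horizontal axis, and the vertical axis gives the log2 fold change of panx1a-/- over TL with its 95% interval in 6 libraries, in red where called lower. The 24 tested genes run from −2.27 (crygm2b) to 0.03 (crygm2d5), and most intervals include 0.

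Elsewhere 5 pairs of neighbouring crystallin genes were found, and 4 of them joined an acidic and a basic beta gene. In the pair of crybb1 and cryba4 the log2 fold changes were −1.24 and −1.09, but only cryba4 was called, and TL replicate 1 exceeded the mean of the other TL libraries by 4.44-fold and 1.75-fold. The pair of cryba1l2 and crybb1l2 had log2 fold changes of −0.56 and −1.33, and that of cryba1a and crybb1l3 −0.18 and 1.03. In the pair of crygmx and crygmxl2 they were −1.42 and −0.82. Differences between neighbours were not tested.

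Other genes of the lens were read from a list of membrane, junction and filament genes of lens fibres. Of 18 listed genes, 16 had counts and 13 were tested, of which 0 were called higher and 2 lower (mipb and lim2.1), against 9.88% of all tested genes called higher and 11.8% lower, with a median log2 fold change of −0.87. Without TL replicate 1 the median was 0.05, with 0 genes called higher and 2 lower (against 18.5% and 17.9% of all tested genes). Summed, the list had 122, 101 and 108 CPM in panx1a-/- libraries and 390, 114 and 116 CPM in TL libraries, and TL replicate 1 lay 3.39-fold above the mean of the other TL libraries. The gene lim2.4, a lens membrane protein gene, had 51.5, 43.4 and 39.0 CPM in panx1a-/- libraries and 185, 42.1 and 41.9 CPM in TL libraries. The gene bfsp2 had 15.2, 13.8 and 16.9 CPM in panx1a-/- libraries and 56.5, 12.2 and 15.2 CPM in TL libraries, and mipa, a lens aquaporin, had 17.5, 16.0 and 16.3 CPM in panx1a-/- libraries and 47.3, 13.7 and 18.1 CPM in TL libraries. In all 3 genes only TL replicate 1 stood away from the other libraries. The called genes differed from these. In mipb, 5.86, 4.68 and 5.01 CPM were measured in panx1a-/- libraries and 15.5, 9.07 and 10.6 CPM in TL libraries. In lim2.1 the values were 5.39, 4.84 and 5.70 CPM in panx1a-/- libraries and 11.8, 13.1 and 8.11 CPM in TL libraries. TL replicate 1 was 1.57-fold and 1.12-fold above the mean of the other TL libraries in mipb and lim2.1. The ratio of summed crystallin to summed lens fibre CPM was 30.6, 29.4 and 32.0 in panx1a-/- libraries and 24.4, 37.2 and 34.0 in TL libraries, so that TL replicate 1 was the lowest in this ratio while it was the highest in each sum.

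Genes on a list drawn up for lens transcription factors had, in sum, a smaller excess of TL replicate 1. They summed to 1157, 845 and 1175 CPM in panx1a-/- libraries and 767, 490 and 553 CPM in TL libraries. TL replicate 1 lay 1.47-fold above the mean of the other TL libraries, against 3.39-fold for the lens fibre list. The counts called on this and the following lists are to be read against the same shares of all tested genes, 9.88% higher and 11.8% lower. Without TL replicate 1, these shares were 18.5% higher and 17.9% lower. Of 16 tested, 4 were called higher (pax6a, six3a, six3b and six7) and 1 lower (mafbb), with a median log2 fold change of 0.45, and TL replicate 1 was the highest library for none. Without TL replicate 1, 9 of the listed factors were called higher and 1 lower. The gene pax6a, a master regulator of eye development that is also active in retina and brain, had 303, 203 and 309 CPM in panx1a-/- libraries and 167, 103 and 110 CPM in TL libraries, and sox1a was at 0 in every library. The level of pax6a in the lens alone cannot be read from whole larvae, and the same holds for six3a, six3b, six7 and the other listed factors. Counts of foxe3 were low, with 11, 9 and 5 in panx1a-/- larvae and 14, 13 and 2 in TL larvae. Those of hsf4, which was not tested, were 6, 4 and 4 in panx1a-/- larvae and 13, 6 and 5 in TL larvae. TL replicate 1 was thus its highest library. Both foxe3 and hsf4 were chosen after their values were seen. Of 8 tested small heat shock protein genes outside the crystallins, 0 were called higher and 3 lower (hspb8, hspb9 and hspb11), with a median log2 fold change of −1.24, and hspb3 was at 0. Without TL replicate 1, 0 genes of this list were called higher and 5 lower. Of 4 tested genes of enzymes that serve as crystallins in other animals, 0 were called higher and 2 lower (cryl1 and cryz).

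Markers of other larval tissues moved between the genotypes in these libraries. Photoreceptor markers summed to 12609, 5690 and 13093 CPM in panx1a-/- libraries and 4052, 3769 and 4563 CPM in TL libraries (10 of 14 tested called higher, 0 lower, with arr3a at 0). Skin and cornea markers summed to 2486, 7843 and 6624 CPM in panx1a-/- libraries and 19397, 46427 and 32602 CPM in TL libraries (0 of 9 called higher, 8 lower, with krt8 at 0). Skeletal muscle markers summed to 40237, 37049 and 22713 CPM in panx1a-/- libraries and 53429, 157957 and 103711 CPM in TL libraries (0 of 12 called higher, 5 lower, namely mylpfa, mylpfb, acta1b, tnnt3b and pvalb2). Without TL replicate 1, 0 muscle markers were called higher and 10 lower. In that fit, 9 photoreceptor markers were called higher and 0 lower, and 0 skin and cornea markers higher and 8 lower. Among the muscle markers not called with all libraries, log2 fold changes lay above 0 for myhz2 (0.63) and acta1a (0.09). In myhz2 all panx1a-/- values lay above all TL values, with 959, 506 and 476 CPM against 375, 413 and 470 CPM. TL replicate 1 was the highest library for none of the tested markers of these 3 tissues, and for skin and muscle its sum was the lowest of the TL libraries. For photoreceptor markers this says little, as most were higher in panx1a-/- libraries. Among the TL libraries, the photoreceptor sum of TL replicate 1 was 0.973 of the mean of the others. For single tested photoreceptor markers this fold ran from 0.324 (opn1lw2) to 4.74 (arr3b), with 3.87 for guca1c. The part of tissue composition in the crystallin values was not tested.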

How the data were processed

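Total RNA of whole 6 dpf larvae had been sequenced as directional paired-end libraries. The values that the authors deposited are raw, unnormalized read counts by gene symbol. The submitters' processing notes name bcl2fastq 2.17, FastQC 0.11.2, Trim Galore 0.4.4, TopHat2 2.0.11, HTSeq 0.6.1p2 and the build danRer11, and the annotation, strand setting and overlap mode are not given in the sources used here. The 5 summary rows of each library were left out of library sizes and tests. They held, among others, reads on no feature (30.2% to 59.4%) and ambiguous reads (0.102% to 0.177%) of uniquely aligned reads.

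Counts were analysed in R 4.3.3 with edgeR 4.0.16 (filterByExpr, TMM, robust quasi-likelihood test, genotype as the only factor, Benjamini-Hochberg adjustment over all 12797 tested genes, threshold 0.05). SE is the log2 fold change's size divided by the square root of F. Alternatives were DESeq2 1.42.0, limma-voom (limma 3.58.1), edgeR's exact test, other scalings and filters, the share of reads on no feature as a covariate, a replicate block and leaving out each library. Scripts were tested on simulated data. Replicates of a genotype differed beyond sampling noise (chi-square per degree of freedom 46.7 to 197), and the biological coefficient of variation was 0.254.

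Members and lists were chosen with earlier results of these data known. Values per library are given for all alpha, gamma N and gamma S genes and, among beta and gamma M genes each, for the 5 with the highest mean CPM, the 3 with the lowest p-value and the 3 with the largest fold change. Other crystallins were chosen after their values were seen, also where this is not stated beside them, as for crybgx, crybb1l3 and crybb3. Genes of different length were not compared in level.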

Additional observations from a re-analysis of the deposited data

Results flagged for a closer look

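Uniquely aligned reads on no annotated feature, which enter no comparison of genes, had a share of 48.4% or more in every panx1a-/- library, against 42.9% or less in every TL library.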

How the results depend on the processing

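Results were recomputed under 16 alternatives, of which 6 left out a library. Crystallins called lower numbered 5 with all libraries, 8 with upper-quartile factors, 1 with library size only, 0 with the share of reads on no feature as a covariate, 10 with edgeR's exact test, 12 with DESeq2, and 0 to 6 when a library was left out. Crystallins called higher numbered 0, and 0 to 1 when a library was left out. Over all genes, 1264 were called higher and 1506 lower, against 874 and 1925 after upper-quartile scaling, 1026 and 607 with library size only, 0 and 1 with the covariate, 1711 and 2255 with the exact test, and 1961 and 2057 with DESeq2. Leaving out a library gave 1 to 2392 higher and 1 to 2316 lower. The median of all genes was −0.06, −0.17 after upper-quartile scaling and 0.17 with library size only.

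Among the crystallins chosen by subfamily, CPM, p-value or fold change, signs turned for cryabb, cryba2a, crygm2d2 and crygn2. Values of cryabb were 0.12 with library size only, 0.13 with limma-voom and −0.49 to 0.52 when a library was left out. Those of cryba2a were 0.0064 with RLE factors, 0.14 with library size only, 0.052 with limma-voom, 0.0064 with DESeq2 and −0.27 to 0.42 when a library was left out. With the covariate, crygm2d2 had 0.14, while the called genes had −1.30 for cryba2b, −1.72 for cryba1l1, −1.90 for cryba4, −3.81 for crygm2b and −1.60 for crygm2d8. For crygn2 the range was −1.13 to 0.10 when a library was left out. Other tested crystallins also turned without TL replicate 1, such as cryba1a (0.63), cryba1b (0.33) and cryba1l2 (1.29). The causes were not tested.

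The replicate number as a block, which the labels do not tie to a shared clutch or batch, gave 8 crystallins lower, with 1743 genes higher and 2139 lower in all and cryba2a at 0.056. Deviations of same-numbered libraries correlated with r between 0.08 and 0.30, and 4 of 6 libraries correlated best with their own number.

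One alternative was added after the data were seen, library size only without TL replicate 1. It called 2 crystallins higher and 1 lower, and 3447 genes higher and 1144 lower in all. Its fold changes were positive for 25 of the 43 tested crystallins and below 0 for 18, against 39.2% of all genes below 0. Examples of positive fold changes were those of cryabb (0.86), cryba2a (0.72), crybb1 (0.18), crygm2d13 (0.21), crygm2d18 (0.19) and crygn2 (0.43). A planned comparison of levels per coding length was not run, as no coding lengths were used here. Depth limits what can be said of the 13 genes that were not tested.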

Other observations

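The gene capn3a, which was not on any list and was chosen after its values were seen, was among the 47 genes at least 2-fold higher in TL replicate 1 than in every other library, with 11.4, 8.82 and 9.46 CPM in panx1a-/- libraries and 34.3, 8.71 and 7.54 CPM in TL libraries. The keratin gene krt96 was another, with 12.6, 36.6 and 25.0 CPM in panx1a-/- libraries and 98.1, 42.2 and 26.3 CPM in TL libraries. Among the crystallins, panx1a-/- replicate 2 was the lowest of the 6 libraries for 27 of the 42 tested genes. The same share over all tested genes was not computed, so this count cannot be read as particular to crystallins.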
